A study of Mus musculus with 8 samples.

Results

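The genes described here are 38 of the 21899 genes in the table, chosen by name: markers of hepatic stellate cells and myofibroblasts (11 genes), collagens (8), matrix proteases with their inhibitors and a crosslinking enzyme (9), ligands and receptors of transforming growth factor beta (TGF-beta, 4), and genes induced by YAP or TGF-beta (6). All 38 were found by symbol, and 35 had enough reads to be tested. Tagln, Tgfb2 and Ankrd1 did not. RNA was sequenced from mouse livers taken 8 h after concanavalin A (ConA), a lectin from jack beans that stimulates T cells and injures the liver. The 4 wild-type (WT) libraries and the 4 libraries of mice labelled as depleted of the P2X4 receptor (a channel opened by extracellular ATP) all came from mice given ConA. The sample labels call the second genotype P2X4R knockdown and the series text calls it P2X4R-/-, and it is called deficient here. Unstimulated livers were not analysed here, so these values have no baseline beside them. The labels give no sex, age, strain, batch or deletion strategy, and leave unsaid whether the libraries are from different animals. The p-values therefore reflect the spread of these 8 samples, which may be technical.

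Hepatic stellate cells lie between hepatocytes and sinusoidal endothelium, store vitamin A as retinyl esters, and become contractile, collagen-producing myofibroblasts when the liver is injured. TGF-beta, activated from latent stores by proteins such as thrombospondin 1, drives matrix production through SMAD proteins. YAP and TAZ are coactivators held back by the Hippo kinases. Once in the nucleus they bind TEAD factors and induce genes such as Ccn1 and Ccn2, which encode secreted matrix proteins. Many matrix genes are not exclusive to stellate cells: hepatocytes, endothelium, smooth muscle and portal fibroblasts express several of them. In bulk RNA, fewer cells of a type and less RNA per cell cannot be told apart.

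Counted reads per library ran from 15445285 to 16604190. P2rx4, which encodes the receptor, was at 17.3 to 29.6 CPM (read counts scaled to a common library size by the trimmed mean of M values, TMM) in the deficient and 43.8 to 62.4 CPM in the WT livers, so 44.2% of the WT mean was left (log2 fold change -1.18, SE 0.19, adjusted p = 0.00481, edgeR). Single libraries held many of the highest values. Deficient library 1, which stood apart among matrix and contractile genes, was the highest of all 8 libraries for 12 of the 38 genes, and WT library 1 for 15. The 7 smooth muscle cell markers summed to 95.2 CPM in deficient library 1 and to 17.5 to 21.5 in the other deficient libraries. In the WT libraries the sum was highest in library 2, at 47.0, and 25.5 to 37.7 in the others. Outside deficient library 1 and WT library 2 most of each sum was 1 gene, Mylk. It ran from 12.1 to 18.5 CPM in the deficient and from 22.2 to 32.5 CPM in the WT libraries. The sums of those libraries therefore mainly follow Mylk. Myh11, the smooth muscle myosin heavy chain, was at 46.0 CPM in deficient library 1, at 12.5 in WT library 2 and between 0.594 and 3.11 in the rest. Counts of the 38 genes are therefore also given without deficient library 1, without it and WT library 2, and without WT library 1. These choices were made after seeing the data. The part of smooth muscle content in the results was not tested.

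Across the whole set the genes that changed fell. Of the 35 tested genes, 9 were lower in the deficient livers at an adjusted p under 0.05 and 0 were higher (edgeR quasi-likelihood test, adjusted over all 11380 tested genes). The share lower was 25.7%, where 10.6% of all tested genes were lower, 9.27% higher and 19.9% changed in either direction. The genes were chosen with earlier results of these data known, so the excess over all genes may come from the choice and is not a test. Before adjustment 9 were lower and 2 higher at 0.05, as were 18% and 17.2% of all tested genes. The 9 were Phlda1, Ccn1, Thbs1, Mmp13, Adamts4, Col14a1, Adamts1, Reln and Dcn, and 7 of them fell at least 2-fold. In each of these 9 every deficient library lay below every WT library, as did 12.3% of all tested genes. Mmp14 alone had every deficient library above every WT library, as did 12.7% of all tested genes. The median log2 fold change of the 35 genes was -0.26, against -0.00 over all tested genes. Without deficient library 1, 15 of 35 were lower and 0 higher, with 6.81% of all genes lower, 6.09% higher and 12.9% in either direction, and the median was -0.84. These 15 were the same 9 with Lum, Col1a1, Col1a2, Col6a1, Mmp2 and Timp2. Deficient library 1 was the highest deficient library for each of these added genes, so leaving it out lowers their deficient means. Without deficient library 1 and WT library 2, the 9 and Timp2, 10 of 34, were lower and 0 higher, with 5.63% of all genes lower, 3.94% higher and 9.57% in either direction. Without WT library 1, 8 members were lower and 0 higher, and the median was -0.081. In that fit 1890 of all genes were called in either direction, against 2264 with all libraries. Shares of all genes by direction are given only for the fits with all libraries, without deficient 1, and without it and WT 2. Over the fits without 1 library, 982 to 2388 of all genes were called, so their counts cannot be set against the shares above.

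**Figure D1:**
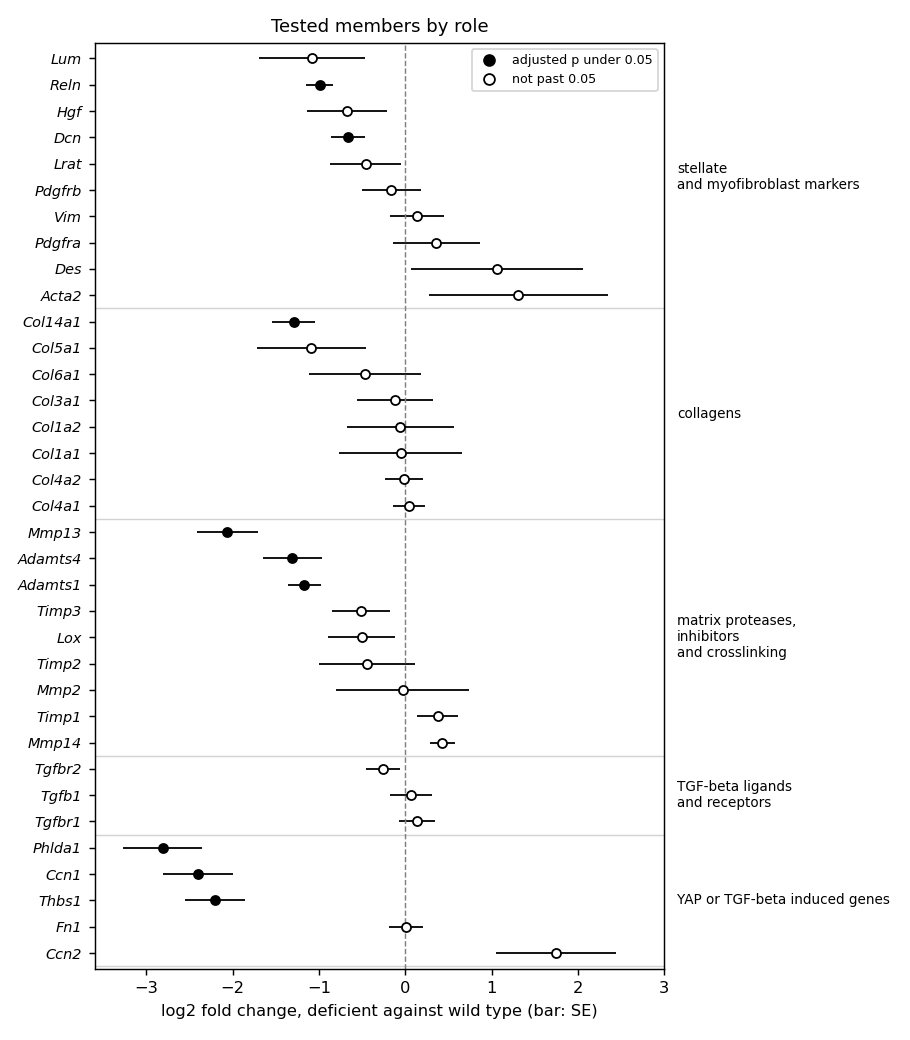
The log2 fold change of each of the 35 tested genes (horizontal axis, deficient against wild type, bars give the standard error), grouped by role, with filled points for an adjusted p under 0.05. The 9 filled points all lie left of zero, between -2.81 for Phlda1 and -0.66 for Dcn, and the widest bars are those of Acta2 and Des.

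The steepest falls were among the genes induced by YAP or TGF-beta. There 3 of 5 tested genes fell (Phlda1, Ccn1 and Thbs1), beside 10.6% of all tested genes, and Fn1 and Ccn2 were not called. Reference promoters of the called genes are shown first, so that the bases before their starts can be searched for motifs of the pathway. Of the 38 genes 25 had an entry among the RefSeq promoters of build GRCm38.p6, and 4 of the 9 called genes did. The 250 bases before the start are printed 5′ to 3′ on the strand of the gene, with matched motif letters in capitals. The regions are chr3:145649986-145650235 on the minus strand for Ccn1, chr9:7272264-7272513 on the plus strand for Mmp13, chr16:85803114-85803363 on the minus strand for Adamts1 and chr5:22344706-22344955 on the minus strand for Reln.
Ccn1: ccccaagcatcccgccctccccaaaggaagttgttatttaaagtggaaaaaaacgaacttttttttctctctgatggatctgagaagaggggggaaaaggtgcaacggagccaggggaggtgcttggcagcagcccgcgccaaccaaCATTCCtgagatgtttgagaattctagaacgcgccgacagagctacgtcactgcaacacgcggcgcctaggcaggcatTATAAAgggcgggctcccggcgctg
Mmp13: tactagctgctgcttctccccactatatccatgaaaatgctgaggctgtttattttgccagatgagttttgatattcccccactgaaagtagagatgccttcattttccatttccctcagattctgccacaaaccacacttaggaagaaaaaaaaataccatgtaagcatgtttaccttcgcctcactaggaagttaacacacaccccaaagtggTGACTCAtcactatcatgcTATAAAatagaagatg
Adamts1: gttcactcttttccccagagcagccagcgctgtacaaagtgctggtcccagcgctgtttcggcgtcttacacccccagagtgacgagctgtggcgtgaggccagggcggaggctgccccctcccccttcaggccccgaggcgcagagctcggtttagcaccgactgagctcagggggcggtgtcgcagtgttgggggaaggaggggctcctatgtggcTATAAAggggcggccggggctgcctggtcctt
Reln: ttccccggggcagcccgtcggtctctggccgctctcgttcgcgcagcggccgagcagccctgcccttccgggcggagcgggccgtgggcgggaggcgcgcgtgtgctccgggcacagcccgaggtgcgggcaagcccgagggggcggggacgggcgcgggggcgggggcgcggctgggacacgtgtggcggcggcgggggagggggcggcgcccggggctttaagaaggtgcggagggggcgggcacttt

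Both strands were searched for the TEAD letters CATTCC, the AP-1 letters TGANTCA, the cyclic AMP response letters TGACGTCA, the TATA letters TATAAA, the CArG box of serum response factor and an NF-kB site. In Ccn1 the TEAD letters began 103 bases before the start and the TATA letters 25 bases before it. In Mmp13 the AP-1 letters, which read alike on both strands, began 35 bases before the start and the TATA letters 16 bases before it. Adamts1 had TATA letters 32 bases before its start, and in Reln none of the 6 motifs was matched. Windows of the same length held the TEAD letters in 12.6% of all 32851 promoters, the TATA letters in 12.4%, the AP-1 letters in 6.75%, an NF-kB site in 7.25%, the cyclic AMP response letters in 1.55% and a CArG box in 1.47%. Among the 4 called genes with an entry, TATA letters were found in 3, TEAD letters in 1 and AP-1 letters in 1. Among the 21 other members with a counted entry, the numbers were 3, 5 and 1 in the same order. An NF-kB site was found in 4 of these 21 and in 0 of the 4 called genes. A match describes the letters and is not evidence of binding.

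Ccn1 (also Cyr61; ENSMUSG00000028195, chromosome 3, 145352731 to 145355736 on the minus strand as the table lists it, build not given) encodes a secreted matricellular protein and is a textbook YAP target. Its CPM was 27.5, 87.6, 22.7 and 28.1 in deficient libraries 1 to 4 and 217, 186, 315 and 159 in WT libraries 1 to 4. The highest deficient library, library 2, was still below the lowest WT library. The means were 41.5 ± 30.8 and 219 ± 67.9 CPM (SD, n = 4 each), a log2 fold change of -2.40 (SE 0.41, adjusted p = 0.00546, edgeR). The deficient mean was 18.9% of the WT mean. On the length-scaled FPKM scale Ccn1 was the second most abundant of the 38 genes, with a mean level of 62.1 over all libraries.

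Phlda1 (ENSMUSG00000020205, chromosome 10, 111342147 to 111344506, plus strand) encodes a pleckstrin homology-like protein induced by growth factors and stress. It was at 2.23, 4.91, 1.33 and 8.27 CPM in deficient libraries 1 to 4 and at 21.1, 23.1, 43.5 and 29.9 CPM in the WT libraries. All deficient libraries were low, and the groups did not overlap. Phlda1 fell to 14.3% of the WT mean, the largest fall of the 35 tested genes (log2 fold change -2.81, SE 0.46, adjusted p = 0.00484, edgeR).

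Thbs1 (ENSMUSG00000040152, chromosome 2, 117942357 to 117957614, plus strand) encodes thrombospondin 1, a matricellular protein of platelets and stromal cells that activates latent TGF-beta. Its CPM was 11.9, 36.4, 15.4 and 23.6 in deficient libraries 1 to 4 and 152, 75.6, 103 and 71.3 in WT libraries 1 to 4. The highest deficient library, library 2, was below the lowest WT library, library 4. Thbs1 fell to 21.7% of the WT mean (log2 fold change -2.20, SE 0.35, adjusted p = 0.00462, edgeR). Of 7 tested markers of platelets and erythroid cells 2 were lower, where 10.6% of all tested genes were. They were the platelet genes Ppbp (-1.49, adjusted p = 0.0136, edgeR) and Itga2b (-0.87, adjusted p = 0.0282). Neither overlapped between the groups, as 12.3% of all tested genes did not in that direction. Pf4, also of platelets, was not called (-0.29, adjusted p = 0.664). The sums of all these markers, haemoglobin genes included, overlapped, at 222 to 376 CPM in the deficient and 188 to 1423 CPM in the WT libraries. The count of lower markers was 1 without deficient 1 or 3 or WT 2 or 3, and 5 without WT 4. The part of these cells in the Thbs1 difference was not tested.

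Ccn2 (also CTGF), a paralog of Ccn1 and a target of both YAP and TGF-beta, did not follow it. Its CPM was 15.9, 5.96, 2.95 and 1.84 in deficient libraries 1 to 4 and 3.04, 3.52, 0.857 and 0.513 in the WT libraries, so the groups overlapped. Ccn2 had a log2 fold change of 1.75 (SE 0.69), which did not pass the threshold after adjustment (adjusted p = 0.0935, edgeR) but was under it before. Without deficient library 1 it was 0.86 (adjusted p = 0.366). The level of Ccn2 was low, with a mean FPKM of 1.56 over all libraries. The difference between the responses of the paralogs was not tested.

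Fn1 encodes fibronectin, which hepatocytes secrete into plasma as well as stromal cells into matrix, and it was the most abundant of the 38 genes (mean FPKM 205). It ran from 1820.3 to 3239 CPM in the deficient and from 1993 to 2637 CPM in the WT libraries, a log2 fold change of 0.01 (SE 0.19, adjusted p = 0.978, edgeR). Ankrd1, a muscle and YAP target gene, had 16, 19, 2 and 8 reads in deficient libraries 1 to 4 and 10, 0, 9 and 1 reads in the WT libraries, and was not tested. Fn1 therefore had overlapping groups and Ankrd1 too few reads to compare.

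**Figure D2:**
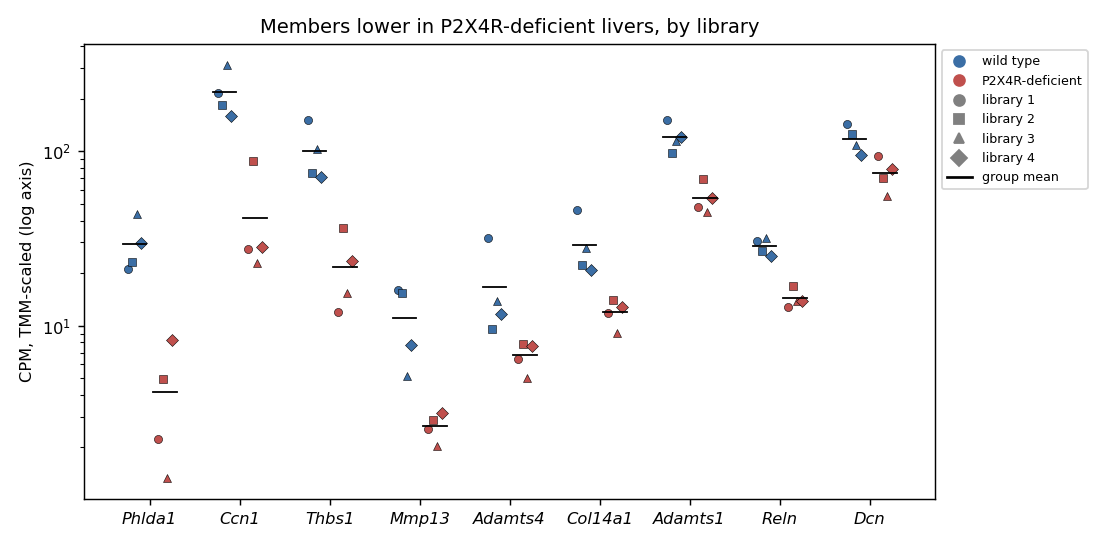
The level of each of the 9 called genes in every library (CPM on a log axis, one point per library, lines at the group means) in deficient and wild-type livers. In all 9 genes the deficient points lie below the wild-type points, with the widest gaps in Phlda1, Ccn1 and Thbs1 and the narrowest in Dcn and Adamts4.

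Other genes of the YAP pathway, taken from textbook lists, were examined beside Ccn1. This list and those below were also chosen with earlier results of these data known, so their shares describe them and test nothing. Of 19 tested YAP targets outside the set, 3 fell and 0 rose, with a median log2 fold change of -0.35. The share lower was 15.8%, beside 10.6% of all tested genes. Gadd45a, a stress-induced cell cycle regulator, was 17.3 ± 13.2 CPM in deficient and 75.4 ± 6.63 CPM in WT livers (SD, n = 4 each; log2 fold change -2.12, SE 0.48, adjusted p = 0.0137, edgeR). F3, the tissue factor that starts coagulation, fell by 2.09 on the log2 scale (SE 0.50, adjusted p = 0.0164), and Amotl2, an angiomotin that feeds back on YAP, by 1.30 (SE 0.29, adjusted p = 0.0132). These 3 genes, like Ccn1, had no overlap between the groups, as had 12.3% of all tested genes in that direction. With deficient library 1 or 4 left out, 5 of the YAP targets were called lower, where 6.81% of all tested genes were lower without deficient library 1.

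Of 18 tested genes of the Hippo pathway itself 3 were lower and 2 higher (16.7% and 11.1%, near the 10.6% and 9.27% of all tested genes), with a median of -0.04. Wwc1 (KIBRA), an activator of the Hippo kinases, fell by 1.04 on the log2 scale (SE 0.17, adjusted p = 0.00481, edgeR), and Vgll4, a TEAD-binding competitor of YAP, fell by 0.74 (adjusted p = 0.0142). Wwtr1, which encodes TAZ, fell by 0.55 (SE 0.15, adjusted p = 0.0254), and Stk4, a Hippo kinase, rose by 0.74 (SE 0.18, adjusted p = 0.0182). The first pair held whichever library was left out. Wwtr1 missed the threshold without deficient library 1 (adjusted p = 0.0573), deficient 3 (0.0656), WT 2 (0.0653) or WT 3 (0.0647) and with library size alone (0.0655), and Stk4 without deficient 3 (0.0517) or WT 3 (0.0525). The counts without 1 library ran from 2 (without deficient 1 or 3, or WT 2 or 3) to 5 (without deficient 2) for lower genes. For higher genes they ran from 0 (without deficient 3 or WT 3) to 2, and were 1 without deficient 1 or 4, or WT 2 or 4.

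**Figure D3:**
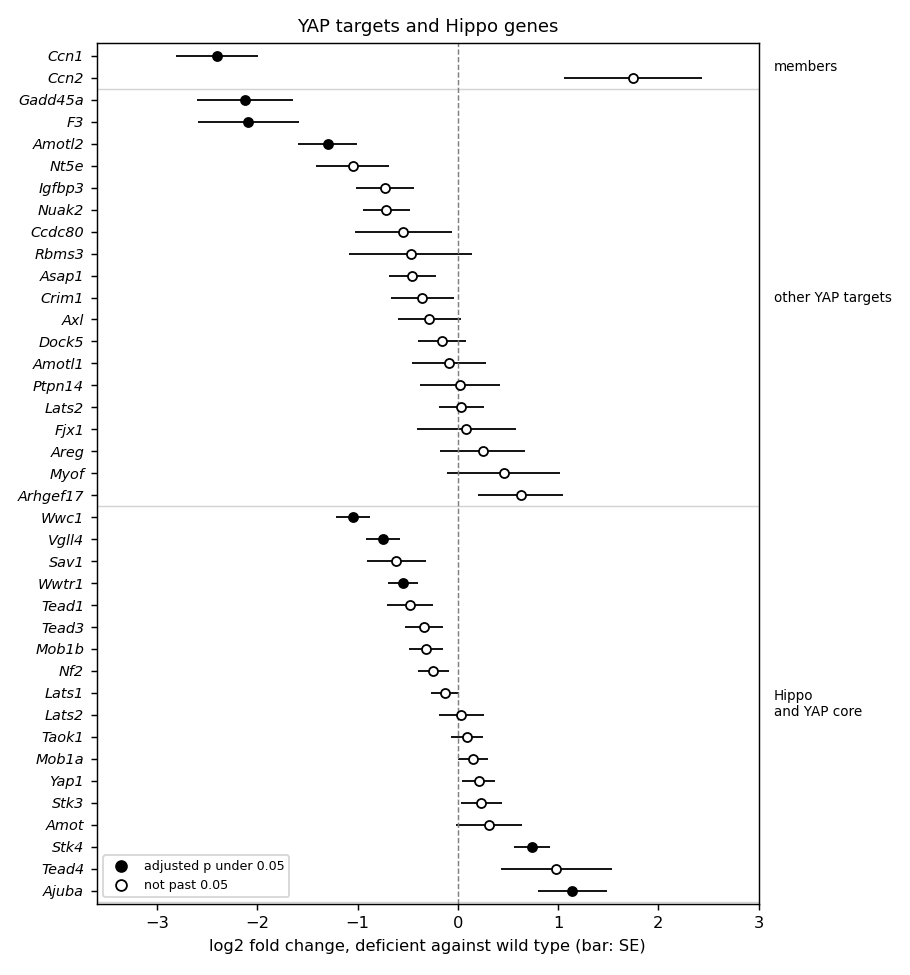
Log2 fold changes (deficient against wild type, bars give the standard error) of Ccn1 and Ccn2, of the 19 other tested YAP targets and of the 18 tested Hippo pathway genes, with filled points for an adjusted p under 0.05. Ccn1, Gadd45a, F3 and Amotl2 are the filled points farthest left, Ccn2 is the open point farthest right, and Hippo genes lie on both sides of zero.

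The TGF-beta ligands and receptors among the 38 genes did not pass the test, 0 of 3, in either direction, beside 19.9% of all tested genes. Tgfb1, the main ligand in liver injury, was at 10.3, 8.76, 9.54 and 10.7 CPM in deficient libraries 1 to 4 and at 14.9, 7.87, 6.92 and 7.88 CPM in the WT libraries (log2 fold change 0.07, SE 0.24, adjusted p = 0.871, edgeR). WT library 1 was the only one far from the rest. The type I receptor Tgfbr1 ran from 18.5 to 28.6 CPM in deficient and from 13.4 to 24.9 CPM in WT livers (0.14, SE 0.21, adjusted p = 0.674). The type II receptor Tgfbr2 ran from 28.1 to 36.5 and from 26.8 to 46.8 CPM (-0.26, SE 0.19, adjusted p = 0.367). The groups overlapped for each of these 3 genes. Tgfb2 had 18, 5, 4 and 2 reads in deficient and 13, 4, 11 and 6 reads in WT libraries 1 to 4 and was not tested.

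Downstream of the receptors, 0 of 21 tested genes of TGF-beta signalling and feedback were lower and 1, the ubiquitin ligase Smurf1, was higher (log2 fold change 0.61, SE 0.17, adjusted p = 0.0247, edgeR). Of all tested genes 10.6% were lower and 9.27% higher. At an unadjusted p under 0.05 the counts of this list were 3 lower and 4 higher, beside 18% and 17.2% of all tested genes. Smurf1 missed the threshold without deficient 3 (adjusted p = 0.0601) or 4 (0.0639), or without WT 2 (0.062), 3 (0.0582) or 4 (0.0564). Without deficient library 1, 3 genes of this list were lower, and without deficient library 2, 2 were. Of 10 tested TGF-beta target genes outside the set, 3 (30%, beside 10.6% of all tested genes) fell and 0 rose, with a median of -0.45. They were Sphk1, a sphingosine kinase (-1.09, adjusted p = 0.0099), the proteoglycan biglycan, Bgn (-0.96, adjusted p = 0.0199), and the matrix protein gene Tgfbi (-0.86, adjusted p = 0.0434). Sphk1 held without each library in turn. Bgn missed the threshold without deficient 3 (0.0571). Tgfbi did so without any library but deficient 1 and WT 4, with adjusted p up to 0.1. This list's count was 1 without deficient 3 and 2 without deficient 4 or WT 1, 2 or 3.

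Among proteases, inhibitors and crosslinking enzymes, 3 of 9 tested genes fell, beside 10.6% of all tested genes. All of them were proteases (Mmp13, Adamts4 and Adamts1). Mmp13 (collagenase 3; ENSMUSG00000050578, chromosome 9, 7272514 to 7283331, plus strand) cleaves fibrillar collagen. Its CPM was 2.53, 2.86, 2.02 and 3.16 in deficient libraries 1 to 4 and 16.1, 15.3, 5.14 and 7.69 in the WT libraries. The deficient livers were tightly grouped below the lowest WT library. This was a fall to 24.0% of the WT mean (log2 fold change -2.06, SE 0.35, adjusted p = 0.00546, edgeR).

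Adamts1 (ENSMUSG00000022893, chromosome 16, 85590715 to 85600001, minus strand) encodes a secreted protease of large proteoglycans such as versican. It was at 47.9, 69.1, 44.7 and 54.1 CPM in deficient libraries 1 to 4 and at 152, 98.4, 114 and 120.4 CPM in the WT libraries, with no overlap. Adamts1 fell to 44.5% of the WT mean (log2 fold change -1.17, SE 0.19, adjusted p = 0.00481, edgeR). It was the more abundant of the pair of ADAMTS genes, with a mean FPKM of 16.2 against 2.41 for Adamts4.

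Adamts4 (aggrecanase 1; ENSMUSG00000006403, chromosome 1, 171077990 to 171088206, plus strand) was at 6.46, 7.89, 5.03 and 7.64 CPM in deficient libraries 1 to 4 and at 31.8, 9.56, 13.9 and 11.6 CPM in the WT libraries. WT library 1 was far above the other WT libraries, which lay close to the deficient ones without overlap. The log2 fold change was -1.31 (SE 0.34, adjusted p = 0.0226, edgeR). It was -0.81 without WT library 1, and its call was lost without deficient library 3 (-1.19, adjusted p = 0.0662).

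Mmp14, the membrane-bound collagenase that activates pro-MMP2, pointed the other way. It was at 52.6, 57.6, 49.6 and 46.1 CPM in deficient libraries 1 to 4 and at 33.0, 37.2, 38.8 and 44.03 CPM in the WT libraries. Every deficient library was above every WT library, and the difference passed the threshold before but not after adjustment (log2 fold change 0.43, SE 0.15, adjusted p = 0.0583, edgeR). With scaling by library size alone the median over all genes was 0.14, and Mmp14 then passed (0.57, adjusted p = 0.0165). It also passed with DESeq2 (0.42, adjusted p = 0.0442).

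The remaining genes of this role did not pass. Mmp2, the gelatinase of activated stromal cells, was at 5.01, 0.373, 0.521 and 0.46 CPM in deficient libraries 1 to 4 and ran from 0.577 to 2.31 CPM in the WT livers. Its log2 fold change was -0.03 with all libraries (adjusted p = 0.983, edgeR) and -1.82 without deficient library 1 (adjusted p = 0.0451). Timp2, an inhibitor of MMP2, was likewise highest in deficient library 1. It was at 9.72, 1.99, 1.39 and 1.95 CPM in deficient and 6.83, 6.54, 4.22 and 2.82 CPM in WT libraries 1 to 4. Its values were -0.44 (adjusted p = 0.608) with all libraries, -1.52 (0.0247) without deficient library 1 and -1.38 (0.0483) without WT library 2 as well. The inhibitor Timp1, which rises in injured liver, ran from 13.8 to 31.3 CPM in deficient and from 15.6 to 22.9 CPM in WT livers (0.38, adjusted p = 0.28). Timp3 (-0.51, adjusted p = 0.304) and the collagen crosslinking enzyme Lox (-0.51, adjusted p = 0.386) overlapped between the groups as well. Without deficient library 1 this role had 5 genes lower, the 3 proteases with Mmp2 and Timp2, beside 6.81% of all tested genes. Without deficient library 3 it had 2.

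Of 25 tested proteases, inhibitors and matrix modifiers outside the set, 2 fell and 2 rose, with a median of 0.10. Each share was 8%, near the 10.6% and 9.27% of all tested genes. Mmp15, a membrane-type metalloprotease, fell by 1.89 on the log2 scale (SE 0.27, adjusted p = 0.00419, edgeR), and Plaur, the urokinase receptor, by 1.22 (adjusted p = 0.00818). Both held whichever library was left out. P4ha2, a subunit of the enzyme that hydroxylates collagen prolines, rose by 0.96 (adjusted p = 0.0162), and the neutrophil collagenase Mmp8 by 2.12 (adjusted p = 0.0209). P4ha2 missed the threshold without WT library 3 (adjusted p = 0.0511), and Mmp8 without WT library 3 (0.0654) or deficient library 4 (1.37, adjusted p = 0.063). Of 8 tested neutrophil markers 3 were higher, where 9.27% of all tested genes were. The sum of the neutrophil markers, most of it Lcn2, which hepatocytes also make, was 6930.4 to 7994 CPM in the deficient and 3631 to 6056 CPM in the WT livers. The count of higher neutrophil markers was 1 without deficient 1 or WT 3, 0 without deficient 4 and 6 without WT 1. The part of neutrophils in the Mmp8 difference was not tested. The count of higher genes in this list was 4 without WT library 1, 1 without deficient library 4 and 0 without WT library 3.

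Among the 8 collagens only Col14a1 fell with all libraries in, a share near the 10.6% of all tested genes. Col14a1 (ENSMUSG00000022371, chromosome 15, 55171146 to 55384199, plus strand) encodes a fibril-associated collagen found in quiescent stellate cells and fibroblasts. Its CPM was 11.9, 14.0, 9.02 and 12.8 in deficient libraries 1 to 4 and 45.8, 22.3, 27.8 and 21.0 in the WT libraries. Deficient library 1 did not stand out for this gene, and the groups did not overlap. Col14a1 fell to 40.8% of the WT mean (log2 fold change -1.29, SE 0.25, adjusted p = 0.00818, edgeR).

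The fibrillar collagens, which make up scar matrix, depended on deficient library 1. Col1a1 was at 14.2, 2.36, 0.983 and 1.32 CPM in deficient libraries 1 to 4 and at 7.85, 5.55, 3.56 and 2.63 CPM in the WT libraries. Col1a2, the other chain of type I collagen, was at 22.8, 4.10, 3.53 and 2.82 CPM and at 14.8, 9.98, 5.34 and 4.49 CPM. Col3a1, the type III collagen, was at 26.9, 7.89, 7.58 and 6.49 CPM and at 19.0, 16.7, 8.90 and 8.33 CPM. In each of the 3 genes deficient library 1 was the highest of all 8 libraries and the other 3 deficient libraries were the lowest.

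With all libraries the log2 fold changes were -0.05 (SE 0.71) for Col1a1, -0.06 (SE 0.62) for Col1a2 and -0.12 (SE 0.44) for Col3a1, and none of the 3 passed the test (adjusted p = 0.967, 0.959 and 0.876, edgeR). Without deficient library 1 Col1a1 and Col1a2 were lower, at -1.65 (adjusted p = 0.0345) and -1.31 (adjusted p = 0.0492), and Col3a1 was -0.85 (adjusted p = 0.0789). Col6a1, a microfibrillar collagen, went from -0.47 (adjusted p = 0.641) to -1.75 (adjusted p = 0.0351). Without that library 4 of 8 collagens were lower, beside 6.81% of all tested genes. Without WT library 2 as well 1 was called, Col14a1, while the log2 fold changes of Col1a1 (-1.59, adjusted p = 0.0605), Col1a2 (-1.23, adjusted p = 0.0884) and Col6a1 (-1.75, adjusted p = 0.0545) stayed about as large. Smooth muscle markers, high in deficient library 1, are listed above, and portal fibroblast markers moved likewise, their 8 genes summing to 19.1 CPM in deficient library 1 and to 4.22 to 10.3 CPM in the other 7 libraries. The part of either cell type in the collagen values was not tested.

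Col5a1, a minor fibrillar collagen, was low, between 0.256 and 3.48 CPM, with a log2 fold change of -1.09 (SE 0.63, adjusted p = 0.246, edgeR). The basement membrane chains Col4a1 and Col4a2 were the most abundant collagens, at mean FPKM of 32.4 and 7.65. Col4a1 ran from 173 to 318 CPM in deficient and from 225 to 250.4 CPM in WT livers (0.05, SE 0.18, adjusted p = 0.885), and Col4a2 from 36.1 to 65.0 and from 38.5 to 69.6 CPM (-0.02, SE 0.22, adjusted p = 0.966). For both chains the groups overlapped, and deficient library 1 was within the range of the others for Col4a2 and the lowest for Col4a1.

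Of 26 tested collagens and matrix proteins outside the set, 3 fell and 1 rose, with a median of -0.42. The shares were 11.5% lower and 3.85% higher, beside 10.6% and 9.27% of all tested genes. Nid1, the basement membrane linker nidogen 1, rose by 0.76 on the log2 scale (adjusted p = 0.0112, edgeR) and held without each library in turn. Bgn, Col18a1, the source of endostatin (-0.69, adjusted p = 0.0229), and Col27a1, a fibrillar collagen of cartilage (-1.09, adjusted p = 0.0458), were the 3 that fell. Col18a1 missed the threshold without deficient 1 (adjusted p = 0.0513), deficient 3 (0.0629), WT 3 (0.0749) or WT 4 (0.0528). Col27a1 did so without any library but deficient 2 and WT 2, with adjusted p up to 0.149. The list had 0 lower genes without deficient library 3, 1 without WT library 3 or 4, 2 without deficient library 4 or WT library 1, and 4 without deficient library 1 or 2.

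**Figure D4:**
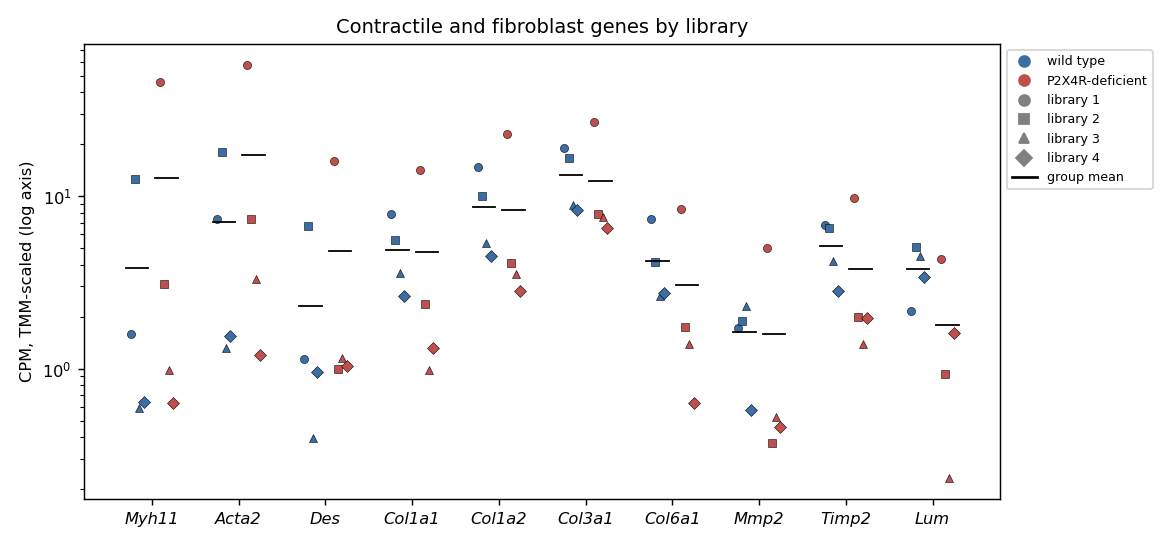
Levels by library (CPM on a log axis, colour for the group, symbol shape for the library number, lines at the group means) of Myh11 and of contractile, fibrillar collagen and stromal genes. Deficient library 1, the red circle, is the highest of all libraries for every gene plotted except Lum, and WT library 2 is the highest WT library for Myh11, Acta2, Des and Lum.

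Among the stellate and myofibroblast markers 2 of 10 tested genes fell, Reln and Dcn, beside 10.6% of all tested genes. Reln (ENSMUSG00000042453, chromosome 5, 22089452 to 22549700, minus strand) encodes reelin, a secreted glycoprotein that in liver marks stellate cells. Its CPM was 12.8, 16.8, 13.9 and 13.8 in deficient libraries 1 to 4 and 30.4, 26.7, 32.0 and 25.0 in the WT libraries. Both groups were tight and well apart. Reln fell to 50.3% of the WT mean (log2 fold change -0.99, SE 0.15, adjusted p = 0.00436, edgeR), with the smallest p of the 35 tested genes.

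Dcn (ENSMUSG00000019929, chromosome 10, 97315471 to 97354005, plus strand) encodes decorin, a small proteoglycan that binds collagen and TGF-beta. It was at 93.5, 70.4, 55.4 and 79.6 CPM in deficient libraries 1 to 4 and at 144, 125, 109 and 95.2 CPM in the WT libraries, so deficient library 1 nearly met WT library 4. The log2 fold change was -0.66 (SE 0.19, adjusted p = 0.0321, edgeR). The call was lost, with adjusted p between 0.0519 and 0.0798, when deficient library 2, 3 or 4 or WT library 1, 2 or 3 was left out, and this role then had 1 gene lower. It was also lost under scaling by library size alone (-0.52, adjusted p = 0.0746).

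Lrat, the enzyme that esterifies retinol and a specific marker of stellate cells, was low in every library. It was at 0.965, 2.17, 1.21 and 0.919 CPM in deficient libraries 1 to 4 and at 2.91, 1.20, 1.45 and 1.67 CPM in the WT libraries. The groups overlapped, with a log2 fold change of -0.46 (SE 0.41, adjusted p = 0.459, edgeR).

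The contractile genes Acta2 and Des varied far more between libraries than between groups. Acta2, the smooth muscle actin of myofibroblasts and vessel walls, was at 57.8, 7.33, 3.30 and 1.21 CPM in deficient libraries 1 to 4 and at 7.40, 17.9, 1.32 and 1.54 CPM in the WT libraries. Des, the intermediate filament desmin, was at 15.9, 0.994, 1.16 and 1.03 CPM and at 1.14, 6.68, 0.396 and 0.961 CPM. Both were highest in deficient library 1 and next in WT library 2, as Myh11 was.

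Acta2 had a log2 fold change of 1.31 (SE 1.04, adjusted p = 0.398, edgeR) with all libraries and of -0.84 without deficient library 1. Des had 1.07 (SE 0.996, adjusted p = 0.479) and -1.09. Without WT library 2 as well, Acta2 was at 0.21 (adjusted p = 0.875) and Des at 0.35 (adjusted p = 0.696), so these falls depended on keeping WT library 2. Neither passed the test in any fit. Tagln, a further smooth muscle gene, had 1 read in deficient library 4, 2 reads in WT library 1 and 0 in the other 6 libraries, where a count of 0 allows up to 3 reads. It was not tested for a difference, and whether its near absence comes from the counting was not tested. Vim, an intermediate filament of mesenchymal and immune cells (0.14, adjusted p = 0.789), and the receptors Pdgfra (0.36, adjusted p = 0.643) and Pdgfrb (-0.16, adjusted p = 0.769) overlapped between groups, as did the hepatocyte growth factor Hgf, a product of stellate cells (-0.68, adjusted p = 0.322). The proteoglycan lumican, Lum, went from -1.08 (adjusted p = 0.234) to -2.02 (adjusted p = 0.0339) without deficient library 1.

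**Figure D5:**
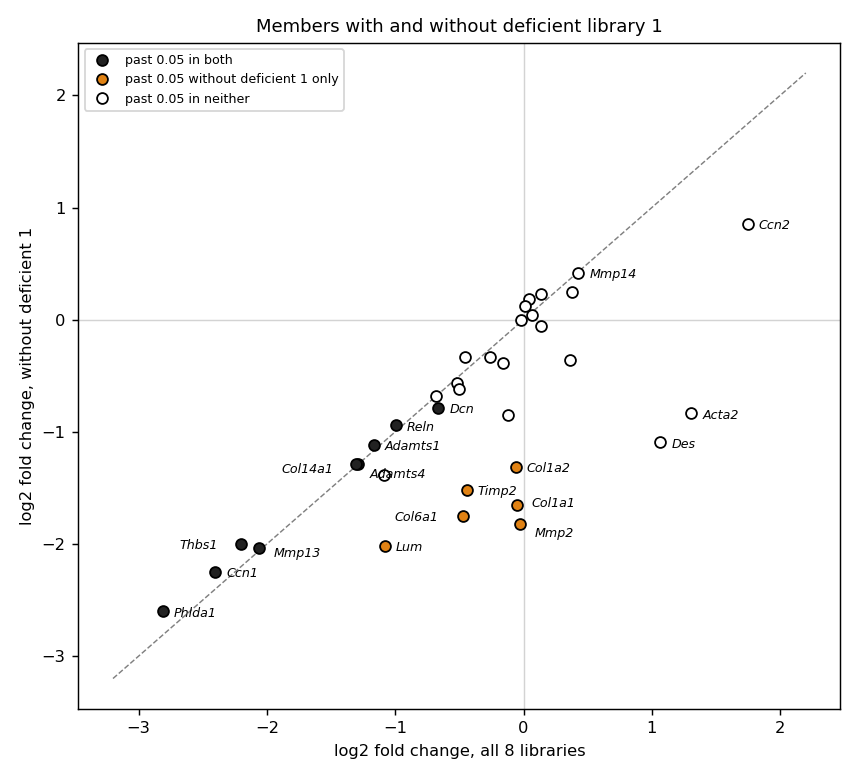
The log2 fold change of each of the 35 tested genes with all 8 libraries (horizontal axis) and without deficient library 1 (vertical axis), with the dashed line marking equal values. The 9 black points, called in both fits, lie near the line, the 6 coloured points, called only without that library, lie well below it, and Acta2 and Des change sign.

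Among the 11 markers used to describe stellate cells, which include Reln, Dcn, Lrat, Des and Pdgfrb, 4 of 10 tested were lower and 1 higher. Of all tested genes 10.6% were lower and 9.27% higher. The CPM of these markers summed to 165 to 258 in the deficient and to 268 to 432 in the WT livers, without overlap. None was at 0 reads in all libraries. Most of the sum was Ecm1 (means 83.9 and 137 CPM) and Dcn (74.7 and 118 CPM). Lrat, Des, Rgs5, Cygb and Pdgfrb overlapped between the groups and were not called. The sums of cholangiocyte markers (47.2 to 158 CPM in deficient and 201 to 242 CPM in WT livers) and of hepatocyte markers were also lower without overlap. The lower count of stellate markers was 2 without deficient 2 or 3 or WT 1, 2 or 3. Outside the set, 4 of 18 tested stellate genes fell and 2 rose (22.2% and 11.1%), with a median of -0.49. The collectins Colec10 (-1.63, SE 0.31, adjusted p = 0.00804, edgeR) and Colec11 (-1.41, SE 0.31, adjusted p = 0.0127) fell and did so without each library in turn. The extracellular matrix protein Ecm1 fell too (-0.71, adjusted p = 0.0354), and Hand2, a transcription factor of stellate cells, rose (2.09, SE 0.47, adjusted p = 0.0136) from 0.652 ± 0.373 to 2.81 ± 0.969 CPM (SD, n = 4 each). Ecm1 missed the threshold without deficient 1, 2 or 3 or WT 1, 2 or 3, with adjusted p of 0.0505 to 0.0935. The lower count in this list was 2 without deficient 2 or 3 or WT 1 or 3, and the higher count was 1 without deficient 1, 2 or 3 or WT 2 or 4.

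Of 16 tested serum response factor and actin genes outside the set, 1 fell and 1 rose (6.25% each, beside 10.6% and 9.27% of all tested genes). Cnn3 fell (-0.47, adjusted p = 0.0335, edgeR) and Cnn2 rose (0.90, adjusted p = 0.0467), with a median of -0.39 over the list. Both missed the threshold without deficient library 1, 3 or 4 or WT library 2, 3 or 4, with adjusted p of 0.0569 to 0.126. Those 6 fits left 0 genes of this list called in either direction. Leaving out deficient library 2 gave 5 lower genes of the list, with 2388 of all genes called in either direction. Of 9 tested genes of PDGF and HGF signalling 1 fell, Hgfac, the protease that activates HGF (-0.77, adjusted p = 0.0121, edgeR), and 0 rose. The share lower was 11.1%, near the 10.6% of all tested genes. Without WT library 1, 2 genes of this list fell. With deficient library 1 and WT library 2 both left out, lower and higher counts were 2 and 1 for the Hippo genes, 4 and 0 for other YAP targets, 2 and 0 for TGF-beta signalling and 3 and 0 for TGF-beta targets. They were 3 and 0 for other stellate genes, 3 and 1 for other matrix proteins and 2 and 2 for other proteases. For PDGF and HGF signalling they were 1 and 0, and for the serum response factor and actin genes 0 and 0.

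Marker lists of other liver cell types gave the following values, beside 10.6% of all tested genes lower and 9.27% higher. Of 9 tested Kupffer cell markers, 3 were lower and 0 higher. The sum of the Kupffer markers was 42.2 to 60.6 CPM in the deficient and 56.3 to 184 CPM in the WT livers, highest in WT library 1. Of the 9 called genes, Thbs1, Col14a1, Adamts4, Mmp13, Adamts1 and Dcn were also highest in that library. The count of lower Kupffer markers was 0 without deficient 1 or 3 and 1 without deficient 2 or 4 or WT 1 or 2. Of 10 tested markers of liver sinusoidal endothelium 1 was lower, with overlapping sums of 61.4 to 107 and 58.5 to 135 CPM, and 0 were without WT 1 or 2. Of 9 tested hepatocyte markers 1 was lower, with sums of 74601 to 101295 and 109285 to 122145 CPM, and the count was 0 without deficient 1 or 3 or WT 3 and 2 without WT 1. The part of these cell types in the 9 falls was not tested.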

How the data were processed

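Liver RNA of 8 mouse samples was profiled after poly-A selection, per the labels' protocols. The deposited table gives raw read counts and FPKM computed by the authors (reads per gene length and library total, per the file headers); FPKM recomputed from the counts differed by at most 7.0e-05%. The submitters' processing notes name cutadapt and HISAT2 2.0.5. The counting strand, the annotation and the build were not given in the sources used here, so reads of overlapping genes cannot be separated (7 members overlap another gene).

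Groups came from the genotype label, and libraries are named by group and title number. Counts were fitted with edgeR 4.0.16 (R 4.3.3): TMM scaling, its default expression filter (11380 genes kept, 10519 removed), the quasi-likelihood test without covariates, and Benjamini-Hochberg adjustment over all tested genes, threshold 0.05. The SE is the log2 fold change divided by the square root of F. CPM are TMM-scaled. FPKM served to compare levels between genes. On simulated counts the test was checked before use. A floor of 3 reads covers counting error only, and reads carry no molecular identifiers.

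Alternatives were library size alone, RLE scaling, DESeq2 1.42.0, limma 3.58.1 on log2(FPKM + 1) or log2(FPKM + 0.1), 2 other filters, robust empirical Bayes, a replicate block, and leaving out each library. All 38 members are accounted for: called members in full, members at an unadjusted p under 0.05 with values, defining markers, fibrillar collagens and TGF-beta genes always, and up to 4 called genes per pathway list by smallest p. The members and lists were chosen with earlier results of these data known. Pathway counts and medians are descriptions without a set test. The marker genes Trac and G6pc1 were not analysed here, and some other results are not reported here.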

Additional observations from a re-analysis of the deposited data

Results flagged for a closer look

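In groups of 4 libraries, a library was picked out where its gap to the nearest other library was, relative to the group's range, above Dixon's critical value. Over members and named genes, 132 groups were examined and 19 values were picked out, 16 of them of members. Chance picks out about 1 in 20 groups. The 2 picks of Tagln rest on 1 and 2 reads against 0 in the rest of the group, which are picked out by construction, and 17 remain without them. Of the 19 values, 10 were in deficient library 1, 1 in deficient 2, 3 in deficient 4, 4 in WT library 1 and 1 in WT 2.

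In deficient library 1 the high values were those of the contractile genes Acta2 (57.8 CPM) and Des (15.9 CPM), the collagens Col1a1 (14.2 CPM), Col1a2 (22.8 CPM), Col3a1 (26.9 CPM) and Col6a1 (8.45 CPM), and Mmp2 (5.01 CPM), Timp2 (9.72 CPM) and Pdgfra (5.73 CPM). Smurf1 was low there, at 12.8 CPM. Ccn1 was high in deficient library 2 (87.6 CPM). In deficient library 4, Mmp8 was high at 8.16 CPM, Tagln high at 0.0575 CPM, which is 1 read, and Timp3 low at 6.66 CPM.

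Among WT libraries, Des stood out in library 2 (6.68 CPM). In library 1, Tgfb1 (14.9 CPM), Colec10 (19.5 CPM) and Tagln (0.127 CPM, 2 reads) were high and Tgfbr1 was low (13.4 CPM). The causes were not tested.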

How the results depend on the processing

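The same-numbered deficient and WT libraries did not deviate together (correlations of 0.12, -0.12, 0.08 and -0.13), so the numbers were not treated as pairs. With the replicate block 9 members were lower and 1 was higher (Ccn2, 1.67, adjusted p = 0.0186, edgeR), and 1768 of all genes were called against 2264 without it. Among the pathway genes named, the block ended the calls of Wwtr1 (adjusted p = 0.0561), Smurf1 (0.057), Cnn2 (0.0712), Cnn3 (0.0742) and Col27a1 (0.0601). Scaling by library size alone ended those of Wwtr1 (0.0655), Cnn3 (0.0897), Col27a1 (0.062), Ecm1 (0.0824) and Tgfbi (0.081), as did limma at either pseudocount (0.0623 to 0.0851). Without the filter Cnn2 (0.0534) and Cnn3 (0.0743) lost theirs, as Col27a1 did with robust empirical Bayes (0.0504). One member, Mmp14, was higher with library size alone, DESeq2, and limma at either pseudocount. Leaving out 1 library gave 7 (without deficient 3) to 15 (without deficient 1) lower members, 0 higher members, medians from -0.84 (without deficient 1) to -0.081 (without WT 1) and 982 (without WT 3) to 2388 (without deficient 2) called genes. Without deficient 1 and WT 2, 1089 genes were called and the median was -0.71.

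Phlda1, Ccn1, Thbs1, Mmp13, Col14a1, Adamts1 and Reln stayed past the threshold in every setting run. With limma on log2(FPKM + 1), Dcn (adjusted p = 0.0731) and Adamts4 (-0.71, adjusted p = 0.0701) did not, and with 0.1 added neither did (0.074 and 0.0582). Of 613 values of members over 18 settings, 539 kept their direction and side of the threshold, 12 lost and 12 gained a call, and 50 changed sign, all of uncalled members. The sign changes under other settings were Col1a1 (0.10), Col1a2 (0.089), Col3a1 (0.032), Mmp2 (0.14) and Col4a2 (0.12) with library size alone. Col4a2 was 0.12 and 0.13 with limma at 1 and 0.1, and 0.017 without the filter, and Pdgfrb was 0.0060 and 0.036 with limma. Fn1 was -0.015 with the replicate block. Pdgfra was -0.43, Vim -0.038 and Tgfb1 -0.029 without deficient 1 and WT 2. The cause was not tested.

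With 1 library left out, log2 fold changes that changed sign ran from -0.84 to 2.36 for Acta2, -1.09 to 2.53 for Des, -0.36 to 0.64 for Pdgfra, -0.38 to 0.23 for Pdgfrb and -0.053 to 0.53 for Vim. They ran from -1.65 to 0.28 for Col1a1, -1.31 to 0.32 for Col1a2, -0.85 to 0.10 for Col3a1, -0.10 to 0.18 for Col4a1, -0.17 to 0.16 for Col4a2 and -1.82 to 0.29 for Mmp2. They ran from -0.055 to 0.37 for Tgfb1, -0.042 to 0.24 for Tgfbr1 and -0.17 to 0.12 for Fn1.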

Other observations

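Tagln had almost no reads where other smooth muscle genes were high, and whether this comes from the counting was not tested. Cnn1, a calponin of smooth muscle, was at 10.3 CPM in deficient library 1 and at 4.01 CPM in WT library 2, and Actg2, the enteric smooth muscle actin, at 9.47 and 3.37 CPM. Tagln, another gene of the same cells, had 0 reads in both libraries. The table lists Tagln with 108 of its 6440 bases overlapping Pcsk7 on the opposite strand. Mylk, the myosin light chain kinase, was lower in the deficient livers (log2 fold change -0.92, adjusted p = 0.01, edgeR), while the other 4 tested smooth muscle markers were not called.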
